A study of Mus musculus with 2 samples.

Results

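The microRNA (miRNA) genes described here form the distal run of the imprinted Dlk1-Dio3 region, from Mir379 to Mir3072 on mouse chromosome 12. They were chosen by position alone. A member is a miRNA gene on the plus strand of chr12:109709060-109747960 (mm10), a stretch of 38901 bases. Of the 1973 miRNA genes in the deposited tables, 34 met this rule with a row of their own. For 4 further plus-strand genes, Mir409, Mir376a, Mir380 and Mir299a, the tables hold a row of the gene facing them on the minus strand, and the opposite-strand counts of that row are their reads, which gives 38 members. The annotation used for positions lists 39 plus-strand miRNA genes there. The remaining one, Mir376b, was not analysed here.

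The tissue was midbrain of healthy B6NCrl mouse embryos at 15.5 days, with males and females pooled, and the sequenced RNA was of a size under 30 bases. Replicate 1 came from 78 embryos and replicate 2 from 62, and the labels call them biological replicates. The only group is this midbrain, so the data give levels and their spread over 2 pools, and no contrast between conditions. No genotype or treatment other than the strain is given.

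The Dlk1-Dio3 region carries genes that are expressed from a single parental chromosome. From the maternal one, long noncoding transcripts such as Meg3, Rian and Mirg are read, and the miRNAs of the distal run are cut from such transcripts. A hairpin is released first, and either of its arms, called 5p and 3p, can become the mature miRNA that pairs with messenger RNAs through its seed, bases 2 to 8. The run is found in placental mammals, is strongly expressed in brain, and its transcription in neurons responds to activity through Mef2 factors. Mice that lack it adapt poorly to the metabolic change at birth and show more anxiety-like behaviour.

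Mature sequences of the most counted members and of those with known roles in neurons are printed first, 5′ to 3′, with the seed in capitals. They come from RefSeq (GRCm38.p6). The tables count reads per gene and do not say which arm a read came from, so a printed arm carries no level of its own. Of the 38 members, 37 have a mature sequence in the RefSeq table. For Mir487b and Mir485 it holds only the arm printed here, and the roles given below for genes are not assigned to an arm.
mmu-miR-487b-5p: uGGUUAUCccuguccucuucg
mmu-miR-369-3p: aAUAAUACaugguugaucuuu
mmu-miR-382-5p: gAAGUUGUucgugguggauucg
mmu-miR-409-3p: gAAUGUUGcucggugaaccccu
mmu-miR-541-5p: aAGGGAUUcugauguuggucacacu
mmu-miR-134-5p: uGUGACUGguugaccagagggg
mmu-miR-329-3p: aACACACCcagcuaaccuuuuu
mmu-miR-485-3p: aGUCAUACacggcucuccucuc
These 8 seeds differ from one another. Of them, only the seed of miR-329-3p also occurs in a mouse miRNA gene outside the run, Mir362.

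The seeds shared within the run are the next set. The RefSeq table holds 71 mature sequences of the run, those of Mir376b included, and lacks some arms. Among the 71 there were 65 distinct seeds, and 6 seeds were shared by a pair of genes. None of those 6 occurs in the 1020 mouse miRNA genes outside the run that have a mature sequence in the table. The pairs with the highest summed levels both include Mir379, the first gene of the run, once with Mir411 and once with Mir1193.
mmu-miR-379-3p: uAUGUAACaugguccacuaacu
mmu-miR-411-3p: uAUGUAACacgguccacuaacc
mmu-miR-379-5p: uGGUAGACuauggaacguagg
mmu-miR-1193-5p: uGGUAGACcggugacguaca
mmu-miR-411-5p: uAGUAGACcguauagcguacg
Counted from the 5′ end, miR-379-3p and miR-411-3p differ by U10C and U22C. The 5p arms of the same genes differ by 7 substitutions, and 1 of them, G2A, lies in the seed. With that change at position 2, Mir379 shares its 5p seed with Mir1193 and not with Mir411.

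Other members are close relatives with different seeds. The 3p arms of Mir300 and Mir381 and those of Mir376b and Mir376a are shown because each pair differs at base 4, inside the seed.
mmu-miR-300-3p: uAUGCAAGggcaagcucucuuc
mmu-miR-381-3p: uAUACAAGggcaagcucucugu
mmu-miR-376b-3p: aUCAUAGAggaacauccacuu
mmu-miR-376a-3p: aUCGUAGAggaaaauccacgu
From miR-300-3p to miR-381-3p the changes are G4A, U21G and C22U. From miR-376b-3p to miR-376a-3p they are A4G, C13A and U20G. In the same way miR-543-3p and miR-495-3p differ by U6A, U7A, G9A and C10U, of which the first 2 fall in the seed. No mature sequence of the run was found without a mismatch in the RefSeq hairpin of another gene. The closest in that search was miR-376c-5p, which differs from miR-376b-5p by U19G only. The strand facing Mir299a, where the gene Mir299b lies, was compared apart, and miR-299a-5p differs from it by 1 base as well.

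Levels are given as CPM, the sense reads of a gene scaled so that all miRNA genes of a library sum to the same total. Those sums were 3429704 reads in replicate 1 and 5752476 in replicate 2. They are not divided by gene length, because a read spans a mature miRNA and not the annotated gene, so values of different genes are compared as reads. Efficiency of capture also differs between miRNA sequences, and the spread between the pools does not measure it. In replicate 1 a read equals 0.292 CPM, and in the deeper replicate 2 it equals 0.174 CPM. Reads that map to several places, 37.7% and 35.8% of all reads, are given to no gene. The members of the run share little sequence with other miRNA genes, and only 5 of 38 had a stretch of 20 bases in common with one. These were Mir411 and Mir758 with each other, Mir376c and Mir487b with Mir376b, and Mir299a with Mir299b.

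The tissue was checked with miRNAs known from brain and from other tissues. Of 9 brain-enriched genes found, 8 reached 1 CPM in both libraries, and the most counted was Mir137, at 10800 and 11585 CPM. Together the 9 genes held 1.60% and 1.72% of sense counts. These genes mark brain and not midbrain in particular. The numbered copies of Mir124a stood at 0.552 to 3.69 CPM and Mir9-2 at 1.66 CPM, in a table that leaves out reads with several places. The sum of the brain list is without such reads and can be too low. The endothelial Mir126a alone took 2.49% and 2.16% of sense counts, more than the brain list in both libraries by this count. The mural genes Mir143 and Mir145a together took 0.639% and 0.587%. White cell, red cell and epithelial lists each held 0.0197% to 0.0803%, Mir122 of hepatocytes 0.00432% and 0.00761%, and 3 of 4 muscle genes were at 0 in both libraries. Levels are of whole tissue, in which fewer cells of a type and less RNA per cell cannot be told apart.

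The run was a large part of the midbrain reads given to miRNA genes. Its 34 sense rows held 247367 of the sense counts in replicate 1, or 7.21% (95% exact Clopper-Pearson interval 7.19 to 7.24), and 463778 in replicate 2, or 8.06% (8.04 to 8.08), a mean of 7.64 ± 0.601% (SD, n = 2). Intervals and tests here cover counting error only and take reads as independent. Reads of amplified libraries are not independent molecules, so the intervals can be too narrow. With the reads of the 4 facing rows in both parts of the fraction, the share was 8.18% and 9.13%. Reads with several places, 37.7% and 35.8% of all reads, are in neither part of these fractions. How they divide between the run and other miRNA genes was not tested, and the share could be lower with them. Most of the gap between the pools lay in one gene. Mir487b alone held 2.69% and 3.37% of sense counts, and the other 33 members 4.53% and 4.70%.

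Nearly the whole run was detected. At 1 CPM or more in both libraries stood 30 of the 34 sense rows, against 443 of all 1973 genes (22.5%), and 34 of the 38 members with the facing rows. Of the 34, 11 had a mean of 1000 CPM or more, against 92 of 1973 genes (4.66%). The detected members had a median of 516 CPM and all detected genes a median of 72.3 CPM. Of the 25 genes most counted by sense reads with a single place, 2 were members.

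**Figure D1:**
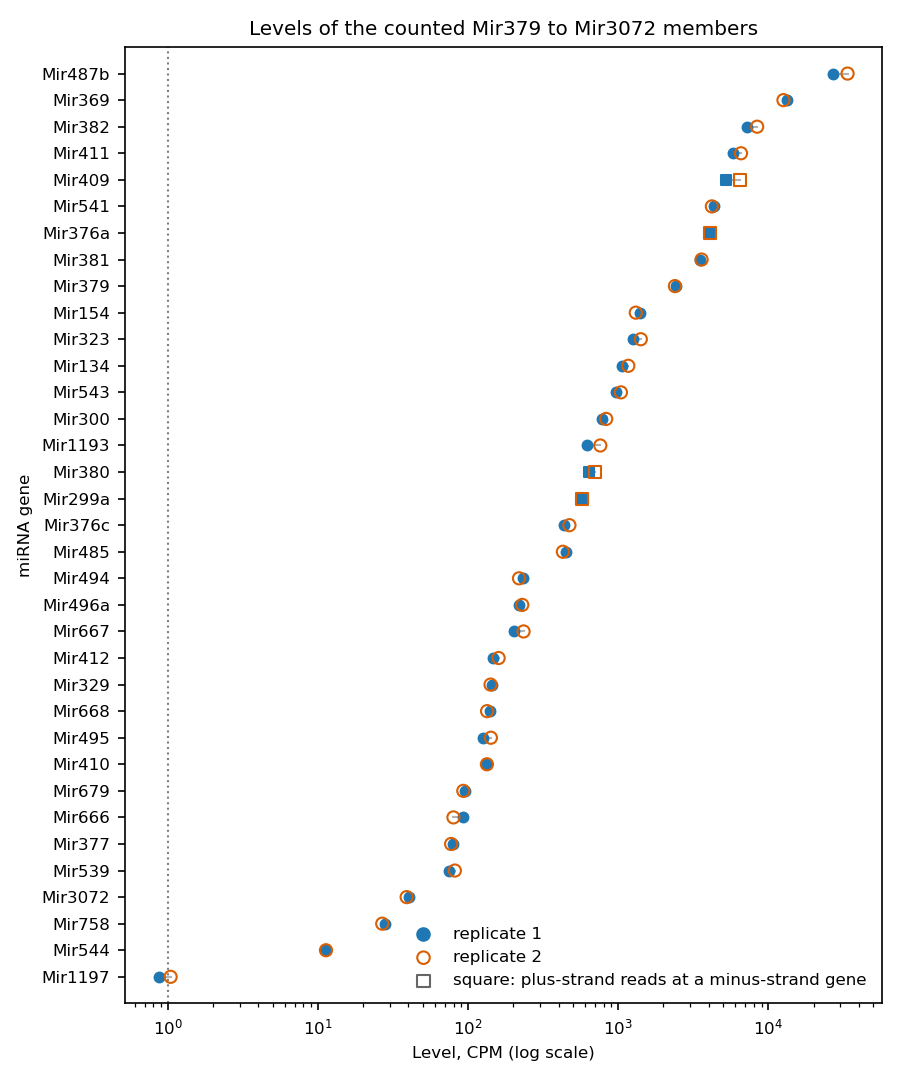
Level in CPM on a log axis (x) of the 35 members with a count (y), filled blue for replicate 1 and open orange for replicate 2, with squares for the 4 members read from a facing gene and a dotted line at 1 CPM. Levels fall from Mir487b, at 26852 and 33666 CPM, to Mir544, at 11.4 and 11.3 CPM, with Mir1197 alone near the line.

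Mir487b was the most counted member and, by sense reads with a single place, the sixth most counted miRNA gene. Genes whose reads map to several places can rank too low in this order. Mir487b stood at 26852 CPM in replicate 1 and 33666 CPM in replicate 2 (30259 ± 4818 CPM) and made up 34.5 ± 2.80% of all reads of the run. Its hairpin is printed for this weight, with the mature arm in the table in capitals.
Mir487b hairpin, chr12:109727333-109727414, plus strand: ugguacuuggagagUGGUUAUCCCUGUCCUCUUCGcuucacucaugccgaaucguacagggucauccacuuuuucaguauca
The stretch it shares with Mir376b lies in a hairpin whose own reads were not analysed here. Even the lower of its values was 2.03 times that of the next member in the same library. The libraries differed on this gene by more than the counting error of independent reads, with a log2 ratio of 0.29 (interval 0.28 to 0.30) of replicate 2 over replicate 1.

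Mir369 followed, a miRNA that represses N-cadherin during cortical neurogenesis together with Mir496a and Mir543 of the same run. Mir369 had 13218 and 12589 CPM, fifteenth among all miRNA genes by sense reads with a single place. Mir543 had 959 and 1041 CPM, and Mir496a 220 and 229 CPM. The 3 genes linked to this target kept the same order in both pools, with no overlap of their values. Mir369 gave 14.8 ± 1.67% of the reads of the run.

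The next 6 members lay between 3520 and 8411 CPM. Mir382 had 7235 and 8411 CPM, and Mir411, whose transcript is known for editing of adenosine to inosine, 5851 and 6567 CPM. Mir409, which acts in corticospinal neurons by repressing Lmo4, had 5239 and 6452 CPM, counted at its facing gene. Mir411 was above Mir409 in both libraries, but their means differed by less than their SDs (506 and 858 CPM). Mir541 had 4324 and 4201 CPM, Mir376a 4083 and 4057 CPM and Mir381 3520 and 3587 CPM, each with little spread. Mir541 stood above Mir376a by only 1.06 and 1.04 times, and the order was the same in both libraries.

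Members known from the dendrites and synapses of neurons covered a wide span. Mir134, which limits the growth of dendritic spines by repressing Limk1, had 1065 and 1166 CPM. Mir381 and Mir329 act with it in activity-dependent growth of dendrites, and Mir329 had 145 and 141 CPM, below Mir134 in both libraries. Mir485, which represses the synaptic vesicle protein SV2A, had 448 and 427 CPM. Of these 4 genes Mir381 was the most counted in both libraries, and their order did not change between them.

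At the start of the run, Mir379 had 2418 and 2384 CPM, and its seed relatives Mir411 and Mir1193 (614 and 759 CPM) lay above and below it. The genes with the seed of miR-379-3p and miR-411-3p summed to 8610 CPM and those with the seed of miR-379-5p and miR-1193-5p to 3088 CPM, sums in which reads of both arms are counted. Mir411 exceeded Mir379 by 2.42 and 2.75 times. Mir379 exceeded Mir1193 by 3.94 and 3.14 times. The other 4 seed pairs summed to 28.3 to 454 CPM. In the pair of Mir453 and Mir496a only Mir496a had reads, and the sum for Mir376c and Mir376b holds Mir376c alone.

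Members related by sequence or by family name were counted at unequal levels. Mir381 exceeded Mir300 (784 and 830 CPM) by 4.49 and 4.32 times. Mir376a exceeded Mir376c (436 and 473 CPM) by 9.37 and 8.58 times, with the reads of Mir376a taken from its facing gene and part of Mir376c shared with Mir376b. That pair is set side by side for its name, as differences between mature sequences of the same arm were not listed for its genes. Mir376 hairpins are textbook substrates of adenosine-to-inosine editing, which the tables do not show. Mir543 exceeded Mir495 (126 and 142 CPM) by 7.60 and 7.35 times. In each of these pairs the folds in the libraries lay close together.

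The rest of the run fell away steeply. Mir154 (1387 and 1308 CPM) and Mir323 (1249 and 1413 CPM) also passed 1000 CPM, and their order switched between the libraries. Mir494 had 233 and 218 CPM, and Mir410 had 131 and 133 CPM. Means of the other detected sense rows lay from 11.3 CPM for Mir544 to 218 CPM for Mir667, and the last gene of the run, Mir3072, had 40.5 and 38.9 CPM. Mir667 had 201 and 234 CPM and Mir758, which shares bases with Mir411, 28.0 and 26.8 CPM. Mir1197 had 3 and 6 counts, and Mir654, Mir453 and Gm27379 had none, which allows up to 0.875 CPM in replicate 1 and 0.522 CPM in replicate 2. The 5 most counted members held 71.9% of the reads of the run and the 12 most counted 92.7%.

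The level of a member showed little relation to its place. Gaps between neighbours ran from 20 to 4368 bases with a median of 590, and 24 of 37 were under 1000 bases. Spearman's rho of the mean level was -0.01 with the distance from Mir379 over 38 members, and -0.06 with the level of the next member over 37 pairs, as descriptions over genes of the same libraries. Among 15 neighbour pairs within 1000 bases, with at least 100 counts in each gene and library, the higher member exceeded the lower by a median of 8.16 times, and by over 10 times in 6 pairs. Mir541 and Mir409 were the closest, at 1.37 times, and Mir487b and Mir539 (74.1 and 81.5 CPM), 714 bases apart, the farthest, at 363 and 413 times.

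**Figure D2:**
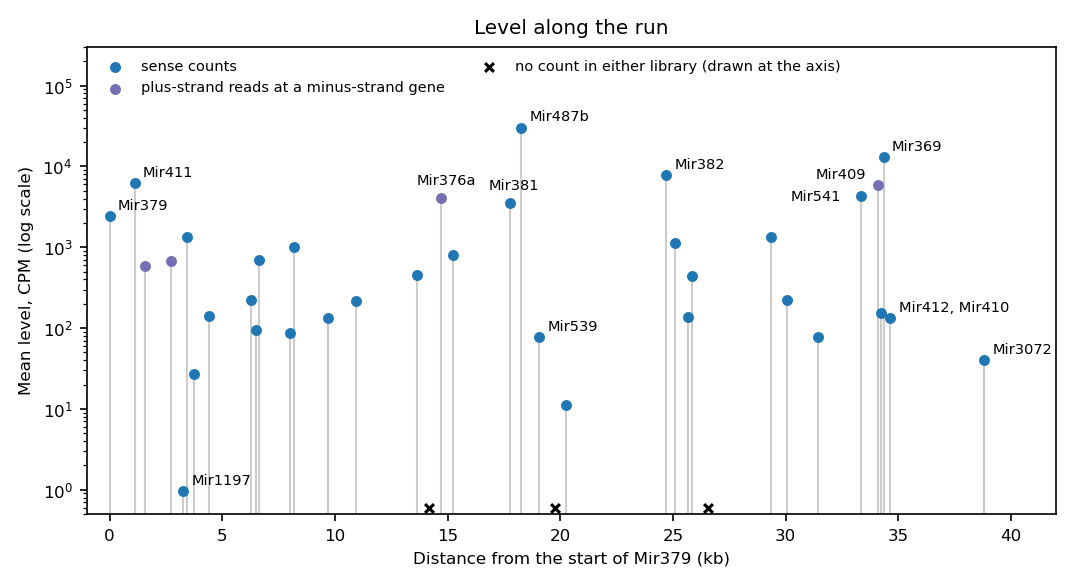
Mean level of each member in CPM on a log axis (y) against the distance in kb from the start of Mir379 (x), with sense counts in blue, reads at a facing gene in violet and crosses for the 3 members without a count. Neighbours can differ widely in level, as Mir369 at 12903 CPM between Mir412 at 153 CPM and Mir410 at 132 CPM does.

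Large steps in level also lay close together near the end of the run, where 4 hairpins fit into 638 bases. Mir409, Mir412, Mir369 and Mir410 follow each other there with gaps of 52, 49 and 218 bases, and together they gave 21.8 ± 1.23% of the reads of the run. Mir412 had 146 and 160 CPM. Mir409 exceeded it by 35.9 and 40.4 times and Mir369 by 90.7 and 78.9 times. Mir369 in turn exceeded Mir410 by 101 and 94.4 times. The high and the low genes thus alternate within this short stretch, in both libraries. The hairpins of the high ones are printed with the mature arms in capitals.
Mir409 hairpin, chr12:109743158-109743236, plus strand: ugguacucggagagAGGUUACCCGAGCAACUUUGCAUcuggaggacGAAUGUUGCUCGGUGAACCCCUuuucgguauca
Mir369 hairpin, chr12:109743418-109743496, plus strand: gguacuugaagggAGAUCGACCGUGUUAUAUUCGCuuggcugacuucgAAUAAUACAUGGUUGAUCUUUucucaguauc

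In the annotation, 24 members lie outside Mirg, the noncoding host transcript of the distal end, and they held 60.5 ± 1.77% of the reads of the run. Another 9 overlap an exon of Mirg (26.1 ± 1.54%), and 5 lie in an intron of it (13.4 ± 0.225%). Mir382, Mir134, Mir485 and Mir369 are in the exonic set, and Mir541, Mir409 and Mir154 in the intronic one. Means in the exonic set ran from 39.7 CPM for Mir3072 to 12903 CPM for Mir369. In the intronic set they ran from Mir453, which had no count, to 5845 CPM for Mir409.

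A short word at the start of the loop recurs among the hairpins of the run. Of the 38 members, 35 have a RefSeq hairpin, and with Mir376b 36 hairpins of the run were searched for words of 7 bases on the transcript strand. The word found in most of them was UUCGCUU, in 10 of 36 (27.8%), against 2 of the 969 other mouse hairpins (0.206%). It was chosen for its frequency in the run, so its share there is a description. In 9 of the 10 it lay across the end of the 5p mature sequence, and in 6 of those the first 4 letters belong to the mature and the rest to the loop. The 10 genes include Mir487b, Mir369 and Mir382, the 3 most counted, as well as Mir377 at 78.2 CPM, so that the word went with high and low levels. A second word, CGCUUUA, which overlaps the first by 5 letters where both occur together, was in 7 of 36 and in none of the others. Mature sequences of the run began with A in 38.0% of cases and with C in 5.63%, where all 1738 mouse mature sequences did so in 25.5% and 20.4%. Hairpins of the run had a median GC content of 43.4%, against 51.7% over all 1005 in the table, and GC content and level went together only weakly (Spearman's rho -0.19 over 35 members, a description).

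Reads of Mir409, Mir376a, Mir380 and Mir299a appear in the tables only on the strand opposite to another gene. The facing genes Gm24321, Gm25252 and Gm25750 had 0 sense counts in both libraries and Mir299b 2 and 5, while their opposite-strand counts were 36171 and 67773 in all. These made up 46.3% (exact interval 45.9 to 46.6) and 48.8% (48.6 to 49.1) of the opposite-strand counts of the whole table, in which 67 genes had any. Gm24321, which faces Mir409, ranked second and first among them, and Gm25252, which faces Mir376a, ranked the third in both. Mir380 had 638 and 702 CPM by this count and Mir299a 586 and 571 CPM. In contrast, the 34 sense rows had no opposite-strand count in either library, which allows a share of up to 0.00121% and 0.000647% of their reads.

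**Figure D3:**
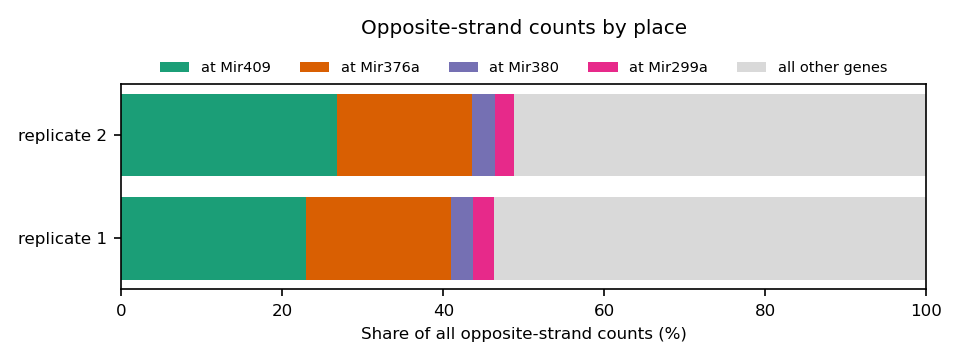
Share in percent (x) of all opposite-strand counts of each library (y) that lie at Mir409, Mir376a, Mir380 and Mir299a, with the other genes in grey. The 4 places hold 46.3% of the counts in replicate 1 and 48.8% in replicate 2, most of them at Mir409 and Mir376a.

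For 3 of these genes the sequences of both strands differ widely. The hairpins of Mir409, Mir376a and Mir380 lie whole within the reverse complement of the facing transcripts, over 79, 68 and 61 bases, and their mature sequences differ from the nearest stretch on the other strand by 5 to 10 bases. Mir299a is a special case, as its hairpin is nearly the same when read on either strand. Its mature sequences differ from the other strand by 1 base (5p) and 2 bases (3p), and miR-299a-3p shares its seed with Mir299b. In the annotation used for positions, Mir299b covers only 49 of the 63 bases of the Mir299a hairpin. The identifier of Mir299b has another version there, so the interval counted may differ. The hairpin is printed to show the symmetry, with the mature arms in capitals.
Mir299a hairpin, chr12:109710638-109710700, plus strand: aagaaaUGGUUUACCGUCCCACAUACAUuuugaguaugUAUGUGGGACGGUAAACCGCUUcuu
Reads of Mir299a and Mir299b were nonetheless almost all counted on the plus strand, 2010 and 3282 against 2 and 5.

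The pools resembled each other closely over the run. Over the 38 members, log2(CPM + 1) correlated between the libraries with Pearson's r of 0.9995 and CPM with Spearman's rho of 0.996, as descriptions across genes, which are not independent replicates. Of the members, 23 had the same rank within the run in both, and no rank moved by more than 3. Ratios were computed after TMM scaling, which lowers the log2 ratio of replicate 2 over 1 by 0.033 relative to CPM. The median absolute log2 ratio was 0.10 over 23 members of at least 100 CPM and 0.12 over all 203 genes of that level.

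**Figure D4:**
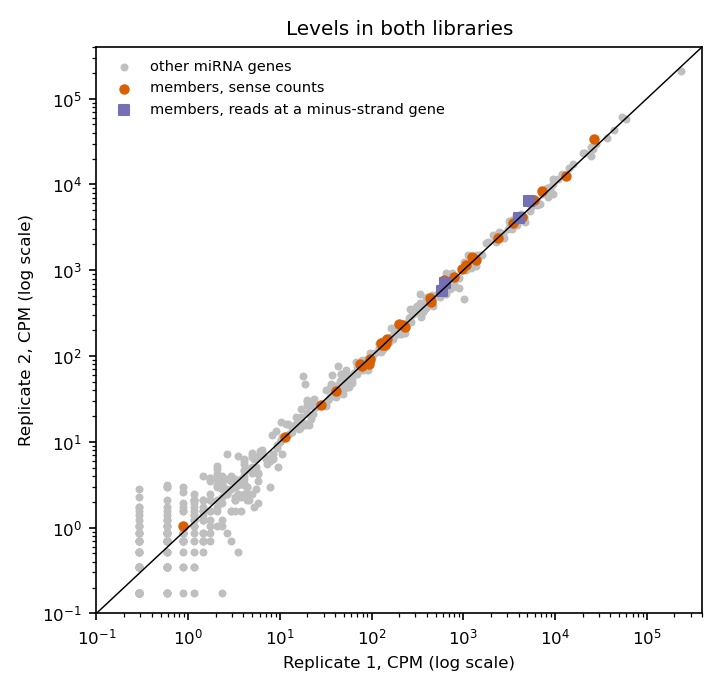
Level in CPM in replicate 2 (y) against replicate 1 (x), both on log axes, for members (orange, violet squares for those read at a facing gene) and the other miRNA genes with a count in both (grey), with the line of equal levels. The members lie along the line up to Mir487b, at 26852 and 33666 CPM, and the lowest of them is Mir1197, at 0.875 and 1.04 CPM.

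Small differences between the pools exceeded the counting error of independent reads. By a two-sided exact binomial test with Benjamini-Hochberg adjustment over 717 genes, which compares these libraries and not conditions, 8 of 31 tested members were higher in replicate 2, where 9.76% of all tested genes were. They were Mir487b, Mir1193, Mir382, Mir667, Mir323, Mir411, Mir134 and Mir543. Higher in replicate 1 were 4 members, Mir369, Mir541, Mir154 and Mir379, against 10.04% of all genes. Since the members are deeply counted, genes of at least 100 CPM are the closer background: there 57 of 203 were higher in replicate 2 and 59 in replicate 1, against 8 and 4 of 23 members.

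The sizes were modest. Among the sense rows of at least 1 CPM, only 3 had an absolute log2 ratio over 0.2 and none over 0.3. Of these, Mir487b is described above, and Mir1193 had a log2 ratio of 0.27 (0.20 to 0.35, adjusted p = 9.36e-12, exact binomial). The third, Mir666, had -0.25 from 318 and 459 counts and did not pass (adjusted p = 0.0865, exact binomial). Mir382 had 0.18 (0.16 to 0.21) and Mir667 0.18 (0.05 to 0.32), while Mir369 went the other way at -0.10 (-0.12 to -0.09) and Mir154 at -0.12 (-0.17 to -0.07). Mir409, counted at its facing gene and not tested, had 0.27 (0.24 to 0.29). Mir379 (adjusted p = 0.0392, exact binomial) lost its call with scaling by total counts and also with counts without regard to strand. Mir543 (adjusted p = 0.0367, exact binomial) lost its call with DESeq2 size factors. If a biological coefficient of variation of 10% is assumed, edgeR's exact test called none of the members and only 3 of all 717 tested genes. Of the members, 14 had an unadjusted binomial p under 0.05, and 0 had an unadjusted p under 0.05 in edgeR's test.

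**Figure D5:**
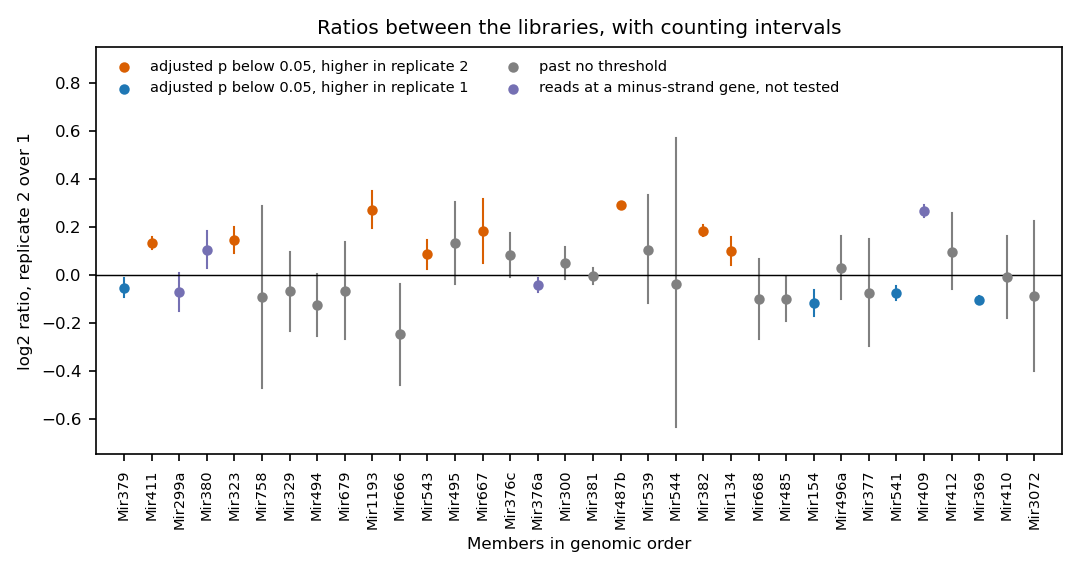
log2 ratio of replicate 2 over replicate 1 after TMM scaling (y) for the 34 members with a mean of at least 1 CPM in genomic order (x), with 95% counting intervals as bars. Orange genes were higher in replicate 2, blue genes higher in replicate 1, grey genes passed no threshold and violet ones were not tested. The points lie between -0.25 and 0.29, and nearby members such as Mir409 (0.27) and Mir369 (-0.10) can differ in direction.

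Differences between the pools were set beside those of nearby genes, and a relation of the ratio to position was not tested. Mir487b was higher in replicate 2 beside Mir381, whose log2 ratio was -0.01 (-0.04 to 0.03), and Mir382 and Mir134 were higher in replicate 2 where the nearby Mir485 had -0.10 (-0.19 to -0.01, adjusted p = 0.139, exact binomial). Of the members of at least 1 CPM, 14 had a ratio above 0 and 16 below. Their median log2 ratio was -0.0084 over 30 members, against -0.0023 over 474 genes. Mir126a, the endothelial gene, had a log2 ratio of -0.24 and Mir205 of the epithelial list 1.62 between the same pools, and the part of tissue composition in the members' differences was not tested.

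Upstream in the same imprinted region lie other miRNA genes, around Rtl1 and Rian. Of 21 names listed for that stretch 18 were found, 15 of them at 1 CPM or more in both libraries and 7 at a mean of at least 1000 CPM. They held 2.03% and 2.15% of sense counts, against 7.21% and 8.06% for the distal run. The most counted was Mir127, which lies antisense to Rtl1 and represses it, at 8825 and 8497 CPM, below Mir487b and Mir369. Their detected genes had a median of 655 CPM by sense counts, and those of the distal run 516 CPM with the facing rows included. By the same exact binomial test 5 of the 18 were higher in replicate 2 and 1 in replicate 1, where 9.76% and 10.04% of all tested genes were. Mir432 of the 18 had no count and was not tested. The genes called had means of 424 to 8661 CPM. Among all genes of at least 100 CPM, the closer background, 57 of 203 were higher in replicate 2 and 59 in replicate 1. The distal and proximal genes together held 9.24% and 10.2% of the sense counts.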

How the data were processed

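Small RNA of 2 midbrain pools was sequenced. The authors deposited whole read counts per miRNA gene without normalization, in columns for either strand, the sense strand and the opposite strand. Per the deposited readme, mm10 and GENCODE M4 were used. Aligner and counter were not given in the sources used here, and the column layout is that of STAR gene counts. Rows that name no gene (unmapped 13.4% and 16.9% of reads, several places 37.7% and 35.8%, outside genes 3.57% and 3.43%, ambiguous 0%) were left out.

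Positions came from GENCODE M21 on the same assembly; 22 of the 34 identifiers had the same version there. Sequences came from RefSeq. Hairpins of Mir666, Mir544 and Gm27379 and the mature miR-376c-3p, miR-487b-3p, miR-539-3p and miR-485-5p are not shown.

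CPM were computed over 3429704 and 5752476 sense counts. Detection meant 1 CPM in both libraries, and 3 counts were the floor for a gene with none. Log2 ratios used edgeR 4.0.16 TMM scaling and a pseudocount of 1 CPM. The libraries were compared per gene by a conditional exact binomial test, two-sided and adjusted by Benjamini-Hochberg at 0.05 over 717 genes with a count. Intervals are exact at 95%. With 1 group, no quasi-likelihood fit was possible. The test was run on simulated counts first. Alternatives were other count columns, denominators, detection limits and scalings (DESeq2 1.42.0), a filter on CPM, edgeR's exact test at a fixed coefficient of variation, and leaving out each replicate.

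The members and lists were chosen with earlier results of these data known. Values are given for the 12 most counted members, those with roles in neurons, the largest ratios, both ends of the run, members that share 20 bases with another gene, and the 4 with a facing gene. Other named genes (Mir412, Mir539, Mir544, Mir654, Mir666 and Gm27379 among them) were chosen after their values were seen.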

Additional observations from a re-analysis of the deposited data

How the results depend on the processing

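The mean share of the run was 7.64% of sense counts and 3.40% of all reads of the tables. All reads include unmapped reads and those with several places. The share was 9.83% without the most counted gene, 8.66% with the reads of the 4 facing genes, and 7.21% to 8.06% when a replicate was left out. Detected members numbered 30 or 31 under the detection limits of 0.5 CPM, 10 CPM and 1 count, without regard to strand, and without either replicate. Members higher in replicate 2 numbered 7 or 8 and those higher in replicate 1 3 or 4 under the scalings, the filter on CPM and the count column without regard to strand, and those called were a subset of the same genes. With edgeR's exact test at a coefficient of variation of 10%, 0 members were called in either direction, and 3 of all 717 tested genes were called. The scalings moved the log2 ratios by at most 0.033. Calls between libraries need both of them, so leaving one out gives no value for them. No paired analysis was possible because there is 1 group. With 2 libraries, differences between pools cannot be set against a measured spread, and below about 1 CPM a gene rests on a handful of reads.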
